A study of Mus musculus with 4 samples.

Results

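The genes of class I phosphoinositide 3-kinase (PI3K), of its downstream kinase AKT and of the insulin receptor substrates were examined in mouse mammary tumour cells that carry or lack the p21-activated kinase Pak1. These were 8 genes, Pik3ca, Pik3cb, Pik3r1, Akt1, Akt2, Inpp4b, Irs1 and Irs2, of 22013 genes with a tested probe. They were found by the gene name that the array files give to each probe, which returned 12 of the 39429 probes on the array. No further probe reached them through its transcript accession. All cells were grown from mammary tumours of MMTV-Neu mice, a transgenic line whose Neu (Her2) oncogene is under the control of a viral promoter active in mammary epithelium. There were 2 samples labelled Pak1-/- and 2 labelled Pak1+/+, each from a different tumour, and all 4 were starved of serum for 3 h and then given EGF for 15 min. Age and strain were not given in the sources used here. RNA was hybridised with Cy3 to a single-colour Agilent array, on which the median spot intensity was between 322 and 331 and 62.2% to 70.4% of probes were well above background. The single Pak1 probe did not separate the groups in the direction of the labels (12.23 ± 0.03 in the arrays labelled Pak1-/- and 12.04 ± 0.002 in the others, SD, n = 2 each, limma adjusted p = 0.070, and higher in the arrays labelled Pak1-/- past the threshold under cyclic loess, by 0.27), so the names of the groups below are those of the labels. Which part of Pak1 was deleted was not given in the sources used here, and a probe outside it would not check them.

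PI3K phosphorylates phosphoinositides at the inner face of the plasma membrane. Receptor tyrosine kinases bring it there, either directly or through adaptors such as the insulin receptor substrates, and the lipid it makes recruits AKT, which is then phosphorylated and acts on metabolism, growth and survival. The catalytic subunits are held and stabilised by a regulatory subunit, and the lipid signal is ended by lipid phosphatases such as INPP4B. In Her2-driven mammary tumours this is one of the main routes by which the receptor signals. The array measures transcripts and carries no information on phosphorylation or protein.

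Each array probe is a stretch of 60 bases, so every value below belongs to 1 short piece of a transcript. Their first 30 bases are printed for the probes on which the comparison turns, 5′ to 3′ as the files hold them. Capitals mark bases that a second probe of the same gene also covers.
Pik3r1 A_51_P511236, mm9 chr13:102454406-102454465, minus strand: atggtgcttgttaacgctttctgaagcttt
Pik3ca A_52_P265002, mm9 chr3:32360630-32360689, plus strand: agattttgggcactttttggatcacaagaa
Pik3cb A_51_P479914, mm9 chr9:98939114-98939173, minus strand: caatgtgatttttcaatggtattagttcaa
Irs1 A_52_P175242, mm9 chr1:82229692-82229751, minus strand: tacccccaattctgtctggtacttagaatt
Irs1 A_52_P171212, mm9 chr1:82233564-82233623, minus strand: aatgaatgcttaaaacaaggctaaaaagag
Irs2 A_66_P102260, mm9 chr8:11004490-11004549, minus strand: tggagctttgccctctgccagcacctatgc
Akt2 A_55_P2066518, mm9 chr7:28424405-28424464, plus strand: ctgctggCCTTTCCTTACTCCTCGTATTTG
Akt2 A_55_P2025228, mm9 chr7:28424412-28424471, plus strand: CCTTTCCTTACTCCTCGTATTTGTACGGTA
The 2 Akt2 probes in the last lines share 53 of their 60 bases and are close to 1 measurement. The Irs1 probes start 3872 bases apart and share none, so they are separate readings of the same gene. Per the files, the Pik3r1 probe matches 2 RefSeq transcripts, as do those of Akt1 and Akt2, and transcripts of such a gene cannot be told apart by these probes. An annotation of mm9 was not used here, so the exon in which each probe lies is not given.

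Of the 8 genes, 6 differed between the groups: Pik3ca, Pik3cb, Pik3r1 and Akt1 were higher in the arrays labelled Pak1-/-, and Irs1 and Irs2 were lower. Akt2 and Inpp4b did not pass the test. The differences were limma estimates on normalized log2 intensities with Benjamini-Hochberg adjusted p under 0.05 over all 27229 probes tested, each gene being represented by its brightest probe. By the same rule 51.9% of all probes passed, 23.3% as higher and 28.6% as lower, and the count of 6 of 8 is read against that share. The median size of the difference was 0.47 over the 8 genes and 0.33 over all probes tested, without regard to sign. For all 8 genes the values of the groups did not overlap, against 78.2% of all probes. With an added requirement of a 2-fold change only Pik3r1 remained. Fewer cells with a transcript and less of it per cell cannot be told apart in such bulk samples.

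**Figure D1:**
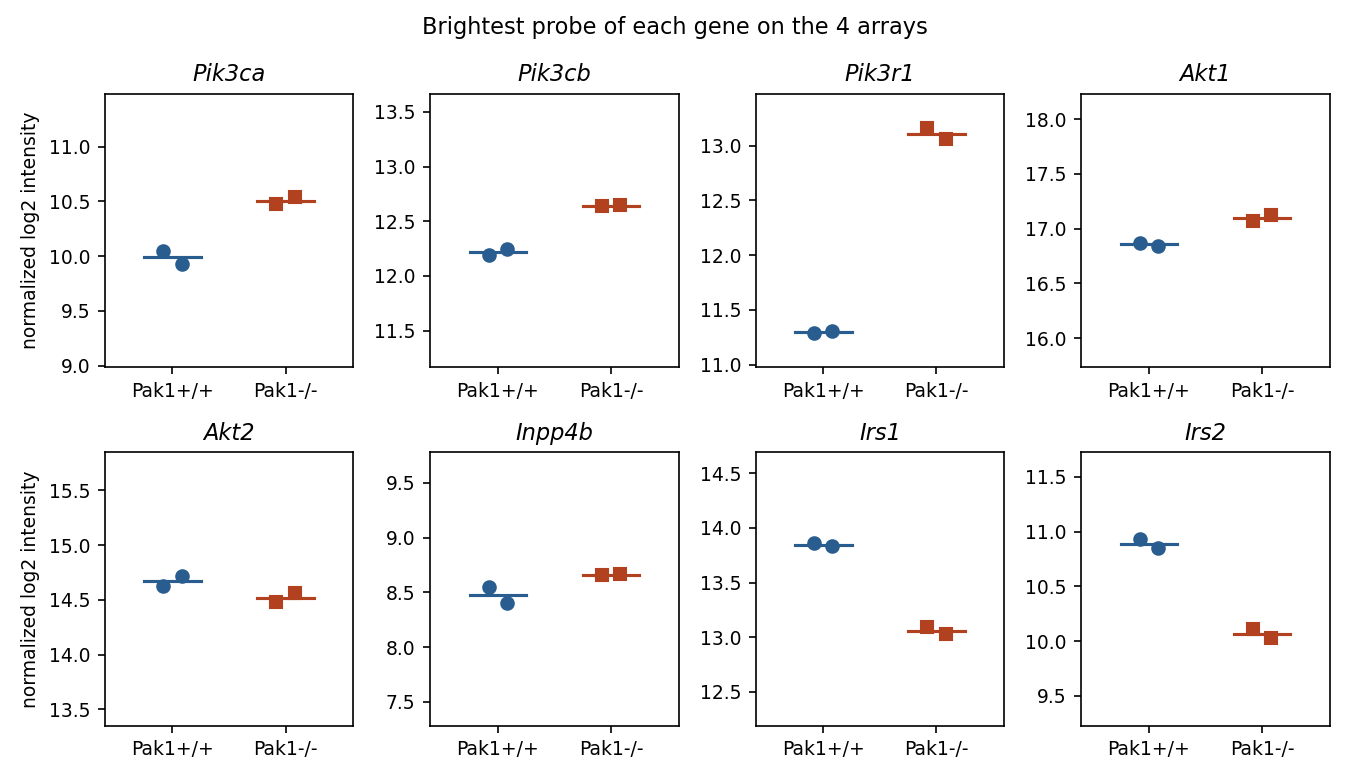
Normalized log2 intensity (vertical axis) of the brightest probe of each of the 8 genes on the 2 Pak1+/+ arrays (circles) and the 2 Pak1-/- arrays (squares), with a line at each group's mean. Every panel spans the same number of log2 units; Pik3r1 has the widest gap (13.06 and 13.16 against 11.29 and 11.31), and Akt2 and Inpp4b have the narrowest.

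Pik3r1 had the largest difference of the 8 genes. It encodes regulatory subunit alpha, which binds phosphotyrosine on receptors and adaptors and holds the catalytic subunits. Its normalized log2 intensity was 13.16 and 13.06 in the arrays labelled Pak1-/- and 11.29 and 11.31 in those labelled Pak1+/+. Both Pak1-/- arrays were well above both Pak1+/+ arrays. The difference was 1.81 (SE 0.08, 95% interval 1.61 to 2.01, limma adjusted p = 0.00021), a 3.51-fold higher intensity. Its size exceeded that of 95.7% of all probes tested. It is also plain before any normalization, since the mean spot intensity was 8674 and 8820 against 2538 and 2434, over a local background of 38.0 to 42.5.

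The catalytic subunits followed the same direction with smaller differences. Pik3ca, which encodes catalytic subunit alpha, gave 10.47 and 10.54 in the Pak1-/- arrays and 10.05 and 9.93 in the Pak1+/+ arrays, a difference of 0.52 (SE 0.08, 95% interval 0.31 to 0.73, limma adjusted p = 0.0063) or 1.43-fold. Pik3cb, which encodes catalytic subunit beta, gave 12.64 and 12.64 against 12.19 and 12.25, a difference of 0.42 (SE 0.07, 95% interval 0.24 to 0.61, limma adjusted p = 0.0073) or 1.34-fold. In both genes the lower Pak1-/- array was above the higher Pak1+/+ array. The intervals of these 2 genes end below the lower bound of the interval of Pik3r1, so the regulatory subunit and the catalytic subunits changed unequally on these probes. The same was seen within each array, where normalization plays no part: the log2 ratio of the processed intensity of Pik3r1 to that of Pik3ca was 2.53 and 2.46 in the Pak1-/- arrays and 1.16 and 1.31 in the Pak1+/+ arrays. The ratio of Pik3r1 to Pik3cb was 0.54 and 0.49 against -0.91 and -0.93. The ratio of a pair of probes carries their own hybridisation strength, so only its shift between groups, 1.26 and 1.44, is a measurement of the samples.

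The insulin receptor substrates were lower in the arrays labelled Pak1-/-, by nearly the same amount. They are docking proteins which the insulin and IGF1 receptors phosphorylate and to which the regulatory subunit of PI3K binds. Irs1 was read by 2 probes. Its brighter probe gave 13.10 and 13.03 in the Pak1-/- arrays and 13.86 and 13.84 in the Pak1+/+ arrays, a difference of -0.79 (SE 0.07, 95% interval -0.97 to -0.60, limma adjusted p = 0.0014). The other probe, which lies elsewhere on the gene, gave 8.58 and 8.50 against 9.06 and 9.22, a difference of -0.60 (SE 0.09, 95% interval -0.84 to -0.37, limma adjusted p = 0.0056). The groups did not overlap on either probe, and both probes moved the same way. Irs2 gave 10.11 and 10.03 against 10.93 and 10.85, a difference of -0.82 (SE 0.08, 95% interval -1.02 to -0.62, limma adjusted p = 0.0015). As a fold change, Irs1 was 1.72-fold and Irs2 1.77-fold higher in the Pak1+/+ arrays. Within the arrays the log2 ratio of Irs1 to Irs2 was 2.73 and 2.74 in the Pak1-/- arrays and 2.71 and 2.76 in the Pak1+/+ arrays, with overlapping groups and a shift of 0.0011. The log2 ratio of Irs2 to Pik3r1 was -2.73 and -2.73 in the Pak1-/- arrays and -0.005 and -0.09 in the Pak1+/+ arrays, which was the widest shift among the ratios computed.

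**Figure D2:**
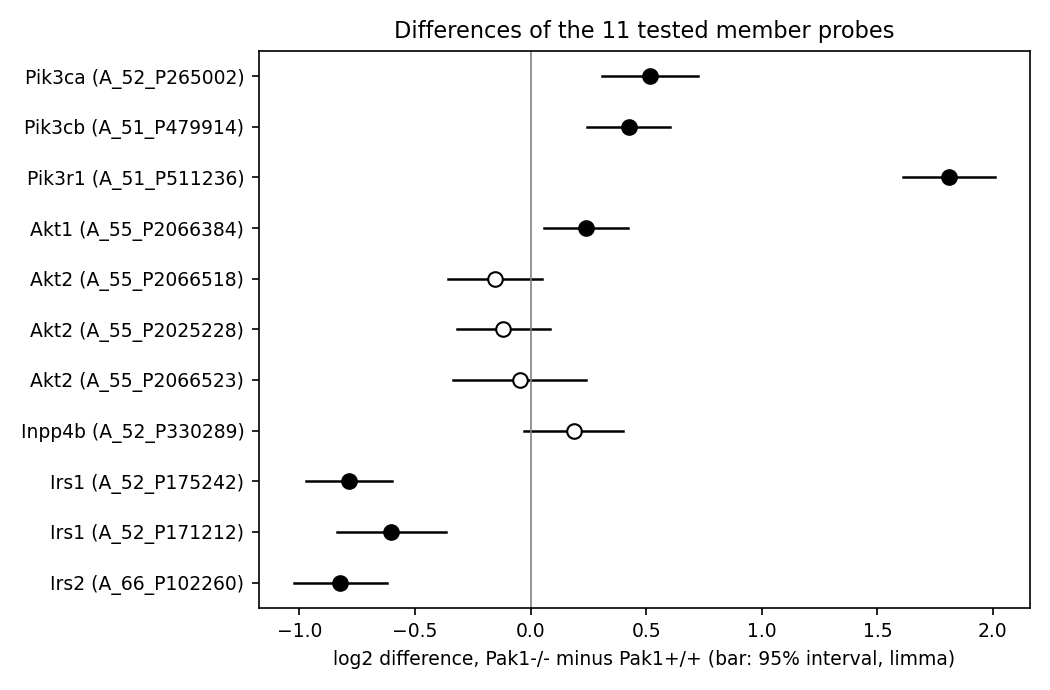
Log2 difference, Pak1-/- minus Pak1+/+ (horizontal axis), of the 11 tested probes of the 8 genes, with its 95% interval from limma. Filled circles passed an adjusted p of 0.05; the 3 probes of the insulin receptor substrates lie on the left, the catalytic and regulatory subunits on the right, and the intervals of all 3 Akt2 probes cross 0.

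The AKT kinases showed small differences at most. Akt1, the widely expressed form, gave 17.07 and 17.13 in the Pak1-/- arrays and 16.87 and 16.84 in the Pak1+/+ arrays, a difference of 0.24 (SE 0.07, 95% interval 0.06 to 0.42, limma adjusted p = 0.041). This probe (A_55_P2066384, mm9 chr12:113892079-113892138, minus strand) is a bright one, and its mean spot intensity before normalization overlapped between the groups, with 116811 and 139871 against 131892 and 125688. It was not marked as saturated on any array. The higher level of Akt1 in Pak1-/- arrays depended on the scaling: it was -0.01 (adjusted p = 0.93) when normexp values were scaled to each array's upper quartile and 0.00089 (adjusted p = 0.99) with the scanner's processed intensities scaled that way. It also lost the call whenever 1 array was left out, with adjusted p of 0.070 to 0.18, and with the replicate number as a block (adjusted p = 0.083).

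Akt2, the form best known for its part in the insulin response, was read by 3 probes, and none passed the test. The brightest gave 14.48 and 14.56 in the Pak1-/- arrays and 14.63 and 14.72 in the Pak1+/+ arrays, a difference of -0.15 (95% interval -0.36 to 0.05, limma adjusted p = 0.16). The probe that overlaps it gave 14.18 and 14.16 against 14.23 and 14.34, a difference of -0.12 (95% interval -0.32 to 0.08, limma adjusted p = 0.26). On these probes the Pak1-/- arrays were the lower ones, by less than the test could separate. The third (A_55_P2066523, mm9 chr7:28418226-28418285, plus strand) starts 6179 bases from the brightest one and gave 12.29 and 12.55 against 12.44 and 12.50, with overlapping groups and a difference of -0.05 (95% interval -0.33 to 0.24, limma adjusted p = 0.74). Its sign was positive under cyclic loess normalization (0.04) and without Pak1-/- replicate 1 (0.08). The intervals leave room for a change of Akt2 of up to 0.36 on the log2 scale in the lower direction for its brightest probe. Within each array the log2 ratio of Akt1 to Akt2 was 2.41 and 2.46 in the Pak1-/- arrays and 2.23 and 2.15 in the Pak1+/+ arrays, which do not overlap.

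Inpp4b encodes a phosphatase that removes a phosphate from the lipids downstream of PI3K and is known as a tumour suppressor of the breast. Its measured probe (A_52_P330289, mm9 chr8:84565823-84565882, plus strand) gave 8.66 and 8.66 in the Pak1-/- arrays and 8.55 and 8.40 in the Pak1+/+ arrays, a difference of 0.19 (95% interval -0.03 to 0.40, limma adjusted p = 0.12). The groups did not overlap, but the difference did not pass the test. It was a dim probe, with mean spot intensities of 323 to 394 over a local background of 38.5 to 44.0. The second Inpp4b probe (A_55_P2016792, mm9 chr8:84646383-84646442, plus strand), which starts 80560 bases away, was not well above background on any array and was the 1 probe of the 12 left out of the test. It gave 6.23 and 6.39 against 6.57 and 6.44, from which no difference is read.

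**Figure D3:**
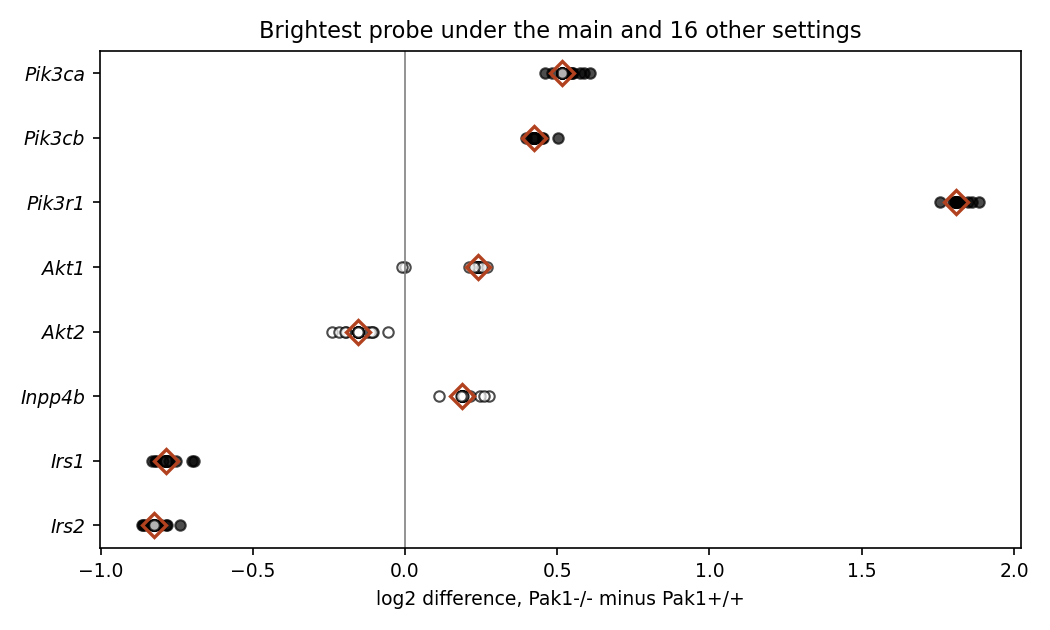
Log2 difference, Pak1-/- minus Pak1+/+ (horizontal axis), of the brightest probe of each gene as reported (open diamonds) and under 16 other ways of processing, leaving out each array included (circles, filled where the result passed that setting's threshold). Pik3r1 stays between 1.76 and 1.89 and is filled throughout, while Akt1 has circles at 0 and mostly open ones.

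The calls of 5 genes were steady. Pik3r1 passed under each of the 16 alternatives, with a difference of 1.76 to 1.89. Pik3ca (0.46 to 0.61), Pik3cb (0.40 to 0.50), Irs1 (-0.83 to -0.69) and Irs2 (-0.87 to -0.74) passed in 15 of 16, and were lost by the 2-fold requirement alone. Akt1 passed in 5 of 16.

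The sequences before the start sites are shown for the genes with the largest differences in either direction, because Irs1 and Irs2 moved together and Pik3r1 opposite to them. They are the 250 bases before the start of the RefSeq transcript (GRCm38.p6, minus strand, 5′ to 3′), and for Pik3r1 belong to the more distant of its 2 start sites. Capitals mark the matches on either strand to the motifs searched: GGGCGG (a GC box), CACGTG (an E-box), GTAAACA (FOXO) and TGACGTCA (a cyclic AMP response element).
Pik3r1, chr13:101768218-101768467: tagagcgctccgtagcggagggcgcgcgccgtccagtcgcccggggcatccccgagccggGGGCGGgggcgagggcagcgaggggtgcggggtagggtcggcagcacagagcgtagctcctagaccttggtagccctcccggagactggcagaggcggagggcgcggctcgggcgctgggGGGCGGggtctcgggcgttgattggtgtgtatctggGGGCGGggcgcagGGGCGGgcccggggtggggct
Irs1, chr1:82291440-82291689: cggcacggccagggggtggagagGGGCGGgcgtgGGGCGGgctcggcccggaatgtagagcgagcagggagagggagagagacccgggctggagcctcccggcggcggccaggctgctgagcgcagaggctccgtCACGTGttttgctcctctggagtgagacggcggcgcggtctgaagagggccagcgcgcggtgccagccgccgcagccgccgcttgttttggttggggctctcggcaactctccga
Irs2, chr8:11008930-11009179: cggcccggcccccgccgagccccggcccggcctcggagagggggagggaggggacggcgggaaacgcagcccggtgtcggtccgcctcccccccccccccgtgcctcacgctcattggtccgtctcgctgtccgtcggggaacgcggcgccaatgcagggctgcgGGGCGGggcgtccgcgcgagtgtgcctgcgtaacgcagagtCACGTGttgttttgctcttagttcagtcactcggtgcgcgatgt
All 3 were rich in G and C (76.4%, 72.4% and 72.8%, against a median of 52.4% over all 32851 promoters in the table). Most of the other members shared this: Pik3cb had 78.0%, Inpp4b 66.0%, Pik3ca 61.6% and 1 start site of Akt1 78.4%. The other start site of Akt1 had 52.0%, and those of Akt2 had 48.8% to 58.8%. Irs1 and Irs2 each held 1 match to CACGTG, which ended 109 and 38 bases before the start. No start site of the other 6 genes had one, and 6.02% of all promoters did. This start site of Pik3r1 held 4 matches to GGGCGG, a motif of 32.7% of all promoters, as did 1 of the 2 start sites of Akt1. The other start site of Pik3r1 held none and had 42.4% of G and C, and the probe does not tell their transcripts apart. None of the 3 promoters printed above held GTAAACA (3.17% of all) or TGACGTCA (1.55%). A match is a run of letters and not a site shown to be bound.

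The genes whose values followed those of Pik3r1 most closely over the 4 arrays were Plod1, H2-T23 and Marcksl1, by the Euclidean distance between log2 values centred on their mean (0.0402, 0.0442 and 0.0476, among 22000 genes). Plod1 encodes a lysyl hydroxylase of collagen, H2-T23 a non-classical MHC class I chain and Marcksl1 a membrane-bound actin regulator. Plod1 gave 10.78 and 10.66 in the Pak1-/- arrays and 8.90 and 8.97 in the Pak1+/+ arrays. Over 4 arrays in 2 groups this likeness is mostly an equal difference between the groups.

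The other genes of the pathway were taken by lists of 109 genes, of which 101 could be tested. In the arrays labelled Pak1-/-, 33 were higher and 23 lower, and 45 did not pass, a share of calls near the 51.9% over all probes. The lower count was the less stable, with 11 lower and 26 higher genes without Pak1+/+ replicate 1, and 13 lower and 28 higher without Pak1+/+ replicate 2 or without Pak1-/- replicate 1. The median difference was 0.05, against -0.05 over the brightest probes of all 22013 genes.

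Among the other class I subunits and their binding partners, 3 of 6 tested genes were higher and 1 lower. Pik3r3, which encodes regulatory subunit gamma, stood beside Pik3r1 with 14.95 and 15.04 against 13.10 and 13.02, a difference of 1.94 (SE 0.08, limma adjusted p = 0.00019). Pik3ip1, a membrane protein that binds and inhibits the catalytic subunit, was higher by 1.79 (adjusted p = 0.00075), and Pik3cg, the catalytic subunit gamma of leukocytes, by 0.75 (adjusted p = 0.0020). The Pik3cg probe was dim, at 7.71 to 8.53, and its difference was 0.66 to 1.04 under the alternatives. Pik3r6, an adaptor of that gamma subunit, was at -0.34 (adjusted p = 0.034), a call that held in 8 of 16 alternatives, with adjusted p of up to 0.15. Pik3r2, which encodes regulatory subunit beta, differed by 0.19 and did not pass the test (adjusted p = 0.15). Of class II and class III PI3K and partners, 2 of 7 were higher (Pik3c2a 0.68, Pik3r4 0.49) and 2 lower (Pik3c3 -0.46, Becn1 -0.43), of which the call of Pik3c2a held in 10 and that of Becn1 in 12 of 16 alternatives. The dimmer Pik3c2a probe differed by 0.21 and did not pass (adjusted p = 0.22), and averaging both gave 0.44. Pik3r4 and Pik3c3 encode the regulatory and catalytic subunit of 1 class III complex, and they moved in opposite directions.

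Of the phosphoinositide phosphatases, 4 of 10 were higher and 3 lower. Mtm1 (-0.43) and Mtmr2 (-0.29), of the myotubularin family, were among the lower ones. Both Mtmr2 probes passed as lower, while the dimmer Mtm1 probe differed by 0.13 and did not pass (adjusted p = 0.30), and Mtm1 was at -0.15 when its probes were averaged (adjusted p = 0.18). The calls of Mtm1 and Mtmr2 held in 10 and 9 of 16 alternatives, and the list had 1 or 2 lower genes and 2 to 4 higher ones when single arrays were left out (2 higher without either of the Pak1+/+ replicates). The higher ones included Inpp5j (0.79), Inpp5e (0.74) and Inpp5k (0.37), which encode phosphatases of inositol lipids. The call of Inpp5k held in 11 of 16 alternatives, with limma adjusted p of up to 0.084. Of 3 Inpp5e probes 2 passed as higher and the other differed by -0.04 (adjusted p = 0.78), and the mean of the 3 gave 0.43.

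Of the receptors and other adaptors, 4 of 15 were higher and 3 lower. Dok1 (1.21), Gab1 (1.06) and Shc1 (0.67), docking and adaptor proteins of receptor tyrosine kinases, were higher. Grb14, an adaptor that restrains the insulin receptor, was lower by -1.39 (adjusted p = 0.0015), and Sh2b2 by -0.79. Insr, the insulin receptor itself, was lower by -0.33 on its brightest probe (adjusted p = 0.042), but its 2 other probes differed by 0.24 and 0.08 without passing the test, and the call held in 2 of 16 alternatives.

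Of the regulators of AKT, 3 of 15 were higher and 3 lower. Them4 (0.71) and Trib3 (0.46), both described as AKT binding inhibitors, and the chaperone Hsp90ab1 (0.36) were higher. The call of Trib3 held in 12 of 16 alternatives, with a difference of 0.36 to 0.55. Hsp90ab1 lost its call under both upper-quartile scalings, where it was as low as 0.05 (adjusted p = 0.64), and kept it in 10 of 16 alternatives. The phosphatase Phlpp2 (-0.41), the phosphatase subunit Ppp2r5a (-0.40) and Trib1 (-0.32) were lower. The dimmer probes of Phlpp2 and Trib1 differed by -0.13 and -0.12 and did not pass (limma adjusted p = 0.47 and 0.21). Phlpp2 kept its call in 9, Ppp2r5a in 13 and Trib1 in 8 of 16 alternatives, and the list had 0 to 2 lower and 1 to 3 higher genes when single arrays were left out (0 lower without Pak1+/+ replicate 2). Of the mTOR complexes and the kinases below them, 2 of 18 were higher (Tsc1 0.71, Mapkap1 0.60) and 8 lower, among them Prr5l (-1.14), Rheb (-0.46) and Rps6kb1 (-0.44). All 3 probes of Rps6kb1 passed as lower, the others at -0.89 and -1.07. The calls of Rheb and Rps6kb1 held in 11 and 12 of 16 alternatives, and Rps6kb1 ranged from -0.80 to -0.35. This list had 5 lower genes when Pak1-/- replicate 1 was left out, and 3 when either of the Pak1+/+ replicates was.

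Of the AKT substrates, 10 of 16 were higher and 1 lower. Among the 10, Foxo4, was not well above background on either Pak1+/+ array and entered the test through the Pak1-/- arrays alone, and with probes well above background on all 4 arrays the count was 9 of 15. The actin-bundling protein Palld differed by 2.30 (adjusted p = 0.00058), the pro-apoptotic Bcl2l11 by 1.03 and the kinase Gsk3b by 0.97. All 3 Gsk3b probes passed as higher, the dimmer ones with smaller differences of 0.62 and 0.52. Nos3, the endothelial nitric oxide synthase, was lower by -1.36 on its brightest probe and by -1.57 on a second. Between 8 and 12 of the 16 were higher under the other scalings and without single arrays. Over all genes by their brightest probe, 5022 were higher and 6202 lower of 22013.

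**Figure D4:**
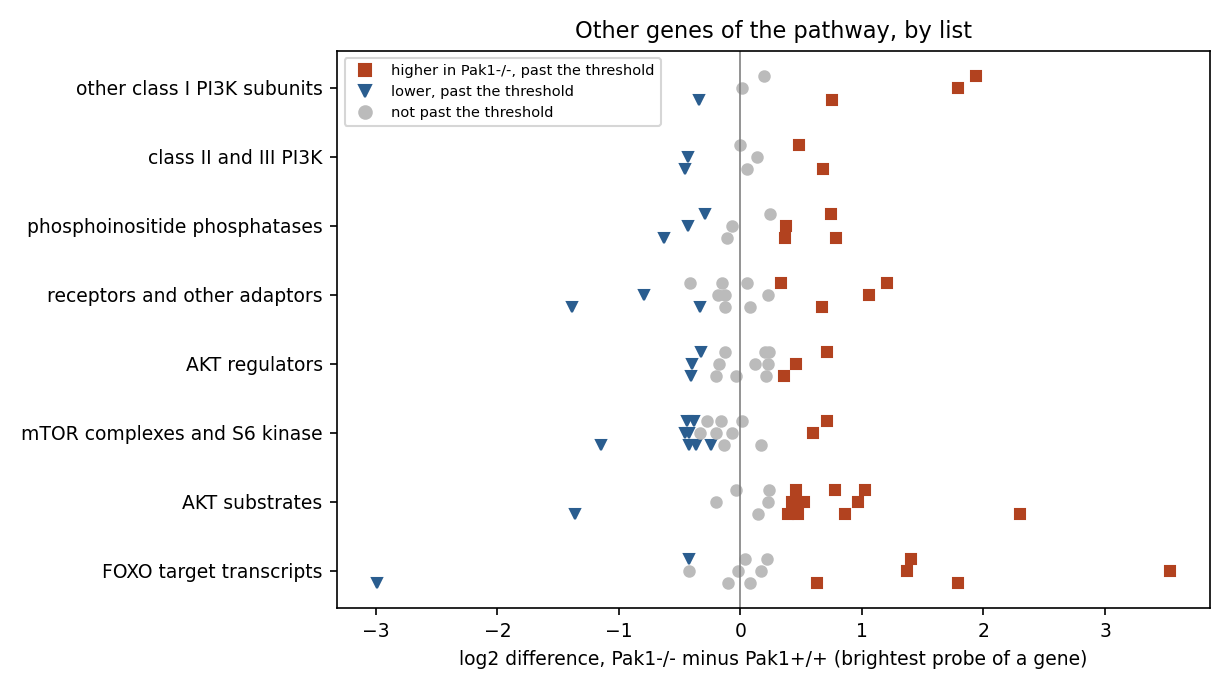
Log2 difference, Pak1-/- minus Pak1+/+ (horizontal axis), of the brightest probe of each tested gene in the 8 pathway lists, with squares and triangles for genes past the threshold and grey circles for the others. AKT substrates lie mostly to the right (10 higher, of which Foxo4 was near background in the Pak1+/+ arrays, and 1 lower) and genes of the mTOR complexes mostly to the left (2 higher, 8 lower).

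Markers of cell types were read beside these results. Of basal epithelial markers, 6 of 7 tested were higher in the arrays labelled Pak1-/- and none lower, and the log2 of their summed intensity was 16.5 to 16.6 against 14.2 to 14.3. Krt14 (2.83) and Krt17 (4.92), keratins of basal cells, were among them. Of luminal markers, 4 of 10 were higher, none lower and 6 did not pass. Their differences ran from -0.64 to 1.71, with a median of 0.05. Their sums, 20.1 against 19.8, mostly reflected Krt8 (0.57) and Krt18 (0.27), which were bright on every array. Of leukocyte markers, 2 of 6 tested were lower, and of fibroblast markers 1 of 4 was higher, with 4 fibroblast markers not well above background on any array. No endothelial marker of 4 passed the test, and of adipocyte markers 1 of 2 was higher. Of all 22013 genes by their brightest probe, 5022 were higher and 6202 lower. The basal markers moved with the label as Pik3r1, Irs1 and Irs2 did, and the part of these markers in the members' differences was not tested. The arrays of each label also lay next to each other on the slide, so genotype cannot be told apart from slide position.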

How the data were processed

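The scanner output deposited for each array gives linear intensities of spots and of their local background, made with Agilent Feature Extraction 9.5.3.1 per the file headers and without normalization. Log2 values processed by the authors (normexp, then quantile normalization, by their methods) served as an alternative. Here normexp (offset 50, not stated in the methods) was applied to mean and local background intensities of all spots in limma 3.58.1 (R 4.3.3). Control spots were left out and log2 values of the 43020 other spots were quantile normalized. Outlier spots were then dropped, and the remaining spots of each of 39429 probes were averaged. Probes that were well above background on 2 or more of the 4 arrays (27229) were fitted with lmFit and eBayes (two-sided, genotype only, Benjamini-Hochberg over all of them, threshold 0.05). The offset understates changes of dim probes. The brightest probe stood for a gene. With 2 residual degrees of freedom the prior added 2.62, and an exact permutation test of 2 against 2 cannot go below 0.333. The number of arrays limits the precision. Each sample came from a separate tumour.

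Members and lists were chosen with earlier results of these data known. Every member probe was reported, with up to 3 genes per direction of each list (those past the threshold with the largest difference), Pak1, and the 3 genes nearest to the member with the largest difference. A result that this rule selects is not reported here. Pik3r2, Foxo1, Foxo4, Krt14, Krt17, Krt8 and Krt18 were named after their values were seen. Probes were named by RefSeq accession where possible (26055 of 32334 matched, GRCm38.p6). Promoters came from RefSeq (GRCm38.p6), with all 8 members matched. Probe coordinates are those of the files (mm9). The fit was tested on simulated data. Replicate numbers did not pair the samples (correlation of their deviations -0.028). Alternatives varied background, scaling, source, filter, probe choice, variance model, block, threshold and samples. Human samples of the study were not analysed here.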

Additional observations from a re-analysis of the deposited data

How the results depend on the processing

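Among 176 values of single member probes under the alternatives, 3 changed sign, 15 lost their call and 158 did neither: Akt1 with normexp values scaled to the upper quartile (-0.012), and the third Akt2 probe (A_55_P2066523) with cyclic loess (0.040) and without Pak1-/- replicate 1 (0.081, and -0.17 to 0.081 without single arrays). The cause was not tested. Of 718 values of the other named genes, none changed sign, 607 kept their side, 110 lost and 1 gained a call (Pak1, higher in the arrays labelled Pak1-/- under cyclic loess). An adjusted p under 0.01 left 34 of 56 pathway genes and 8878 of 14132 probes. An added 2-fold requirement left 1 member (1 higher, 0 lower), 14 pathway genes and 3413 probes, by its construction. Leaving out 1 array gave 5 members (3 higher, 2 lower) each time, 37 to 45 pathway genes (37 without Pak1+/+ replicate 1) and 10307 to 12164 probes. The replicate block gave 5 members, 55 pathway genes and 13211 probes, Akt1 being the member lost. The share of higher among called probes was 44.9%, and 43.0% to 52.4% with other backgrounds and scalings. Signal over background limits Inpp4b most, whose second probe gave no difference.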

Other observations

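FOXO transcription factors are held out of the nucleus by AKT, and transcripts known as their targets were read as a further list. Of 14 tested, 5 were higher in the arrays labelled Pak1-/- and 2 lower, with a median difference of 0.13, and 3 more stayed near background throughout. This share of calls was near the 51.9% over all probes, of which 23.3% passed as higher and 28.6% as lower. With probes well above background on all 4 arrays, 4 of 11 were higher and 1 lower. Tnfsf10, a death ligand, gave 10.55 ± 0.10 against 7.02 ± 0.03 (SD, n = 2 each), a difference of 3.54 (limma adjusted p = 7.1e-05). It was well above background on 1 of the 2 Pak1+/+ arrays, and its difference was 3.46 to 4.89 under the alternatives, the highest with the processed intensities. Sesn3 (1.79), a stress-induced inhibitor of mTOR signalling, and Ccng2 (1.40), a cyclin of arrested cells, were higher as well. Pdk4, which restrains pyruvate dehydrogenase, gave 6.58 and 6.36 against 9.48 and 9.44; it was not well above background on the Pak1-/- arrays and was at least 7.08-fold lower there. Cdkn1b, a cell cycle inhibitor, was lower by -0.42 (adjusted p = 0.019), a call kept in 10 of 16 alternatives. Of the FOXO genes themselves, Foxo1 was higher on both of its tested probes (0.78 and 0.76). The lists' genes moved in both directions, and no relation to AKT was tested.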
